A study of Mus musculus with 20 samples.

Results

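The 10 genes described here carry out iron handling in macrophages: Slc40a1, Tfrc, Fth1, Ftl1, Hmox1, Slc11a1, Slc11a2, Aco1, Ireb2 and Ncoa4. They were chosen by symbol for what their products do, and they are 10 of the 51456 gene symbols in the deposited expression tables. All 10 passed the filter on low values, which kept the 10843 symbols whose mean across all 20 libraries reached 1 FPKQ. FPKQ is the submitters' unit of transcript level. It is taken here as an FPKM on a scale common to all libraries, so that comparing levels between genes assumes that it is corrected for transcript length.

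RNA was sequenced from macrophages grown from mouse bone marrow in 3 genotypes. KO mice carried a knockout of Trem2 that the labels give as 5 bp (5 libraries), and R47H mice carried the R47H substitution knocked into Trem2 (5 libraries). WT mice were wild type (10 libraries), described by the submitters as littermates of each mutant line. Every group was of the C57BL/6 strain, aged 4 to 5 months, and its marrow cells spent 6 days with CSF-1 at 50 ng/ml, the growth factor that turns marrow cells into macrophages. Only cells that adhered to the dish were used. Trem2 is a surface receptor that lets macrophages and microglia sense lipids, and the labels name no promoter or Cre that limits either allele to a cell type. They also do not tie WT libraries to a mutant line, so the same 10 WT libraries stand in both comparisons with wild type. C57BL/6 mice are known to carry a loss-of-function allele of Slc11a1, so its transcript level says nothing of transport by its product.

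Macrophages take in iron bound to transferrin through the transferrin receptor Tfrc, and haem iron by engulfing cells and debris. Hmox1, haem oxygenase, releases iron from haem, Slc11a1 and Slc11a2 move iron out of phagosomes and endosomes, and ferritin, built from Fth1 and Ftl1 chains, stores what is not used. Ncoa4 carries ferritin to lysosomes for breakdown, and Slc40a1, ferroportin, exports iron through the plasma membrane. When iron is scarce, the iron regulatory proteins made from Aco1 and Ireb2 bind a short hairpin in target transcripts, the iron-responsive element. A hairpin in the 5′ untranslated region (UTR) then blocks translation, and hairpins in the 3′ UTR protect the transcript from decay.

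These hairpins are shown because their place in a transcript sets known control by translation, in the 5′ UTR, apart from known control by stability, in the 3′ UTR. The UTRs of GENCODE M21 transcripts (genome build GRCm38) were searched on the transcript's own strand for the pattern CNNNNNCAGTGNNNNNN, in which 5 bases before the loop had to pair with 5 bases after it, G-T pairs allowed. A match lay in the 5′ UTR of 3 members and the 3′ UTR of 1. In the lines that follow, capitals mark the 6 bases of the loop.
Slc40a1, 5′ UTR, chr1:45925465-45925493, minus strand: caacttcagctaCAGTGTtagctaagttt
Fth1, 5′ UTR, chr19:9982732-9982760, plus strand: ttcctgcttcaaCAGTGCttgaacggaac
Ftl1, 5′ UTR, chr7:45459779-45459807, minus strand: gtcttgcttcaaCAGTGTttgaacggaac
Tfrc, 3′ UTR, chr16:32631219-32631247, plus strand: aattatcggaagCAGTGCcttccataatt
Tfrc, 3′ UTR, chr16:32631598-32631626, plus strand: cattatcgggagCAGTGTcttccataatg
Tfrc, 3′ UTR, chr16:32631663-32631691, plus strand: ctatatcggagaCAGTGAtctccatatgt
Tfrc, 3′ UTR, chr16:32631710-32631738, plus strand: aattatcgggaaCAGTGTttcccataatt
Over all genes, the pattern lay in the 5′ UTR of 31 of 20899 (0.148%) and in the 3′ UTR of 129 of 21028 (0.613%). These letters were not found in the annotated UTRs of the other 6 members. Slc11a2, which is known to make a transcript with an iron-responsive element, is 1 of these, so the pattern does not find every known element. RNA-seq counts transcripts, so translation from the Slc40a1, Fth1 and Ftl1 transcripts was not measured.

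Trem2 itself checked the labels: it averaged 24.1 ± 0.435 FPKQ in KO, 652 ± 137 FPKQ in R47H (SD, n = 5 each) and 806 ± 60.6 FPKQ in WT (SD, n = 10). All KO libraries lay below all WT libraries (two-sided exact permutation test, p = 0.000333, the smallest that 3003 splits allow). R47H differed from WT by −0.33 on the log2 scale (exact permutation test, p = 0.00833). Macrophage markers were detected in every library, with Csf1r averaging 1308 FPKQ in KO, 1085 FPKQ in R47H and 935 FPKQ in WT. The 7 markers summed to 32178 to 34909 FPKQ in KO, 25832 to 28945 FPKQ in R47H and 22310 to 25667 FPKQ in WT. Lyz2 made up most of each sum. Of these 7, 4 rose and 2 fell, Itgam and Fcgr1, in KO (28.2% of all tested genes higher, 23.7% lower). In R47H 4 rose and 1 fell, Itgam (13.4% of all tested genes higher, 7.83% lower). The markers of dendritic cells, B and T cells, and stroma and endothelium summed to at most 0.950 FPKQ in any library. Those of neutrophils summed to 42.3 to 75.4 FPKQ in KO, 45.9 to 109 FPKQ in R47H and 41.1 to 76.7 FPKQ in WT, and of 4 tested 1, Ngp, rose in R47H, by 0.54 (limma adjusted p = 0.00469), and 0 in KO. Their part in the results was not tested. Depth was lower in the mutants: a level of 1 FPKQ over 2 kb of transcript equalled 46.3 to 56.8 fragments in KO, 47.8 to 57.1 in R47H and 55.9 to 70.4 in WT. In bulk RNA, fewer cells of a type and less RNA per cell cannot be told apart.

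In KO macrophages, 7 of the 10 members rose and 0 fell relative to WT, with a median log2 fold change of 0.43 against 0.01 over all tested genes. The adjusted p of limma was under 0.05 for 52.0% of all tested genes in this comparison, 28.2% higher and 23.7% lower. In R47H macrophages, 7 members also rose and 0 fell relative to WT, with a median of 0.35 against 0.04 over all tested genes, where 21.2% of all tested genes were called, 13.4% higher and 7.83% lower. Between the mutants, 0 members were higher and 5 were lower in R47H than in KO, with a median of −0.18 against 0.03; of all tested genes 40.7% were called, 22.8% higher and 18.0% lower. A change of at least 1.5-fold on the log2(FPKQ + 1) scale was called for 4 members in KO (12.2% of all tested genes), 2 in R47H (3.14%) and 2 between R47H and KO (6.70%). Scaling every library to the same sum changed the balance over all genes, with 2001 higher and 3532 lower calls in KO (3063 and 2573 as deposited) and 475 higher and 1830 lower in R47H (1452 and 849 as deposited). In R47H the split was 926 and 1089 under median-of-ratios scaling and 1013 and 1071 under quantile normalization. Among the members, equal sums left 6 higher and 0 lower in KO, and 6 higher and 1 lower, Ireb2, in R47H. Under quantile normalization 6 were higher and 1 lower, Ftl1, in KO, and 5 higher and 0 lower in R47H.

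**Figure D1:**
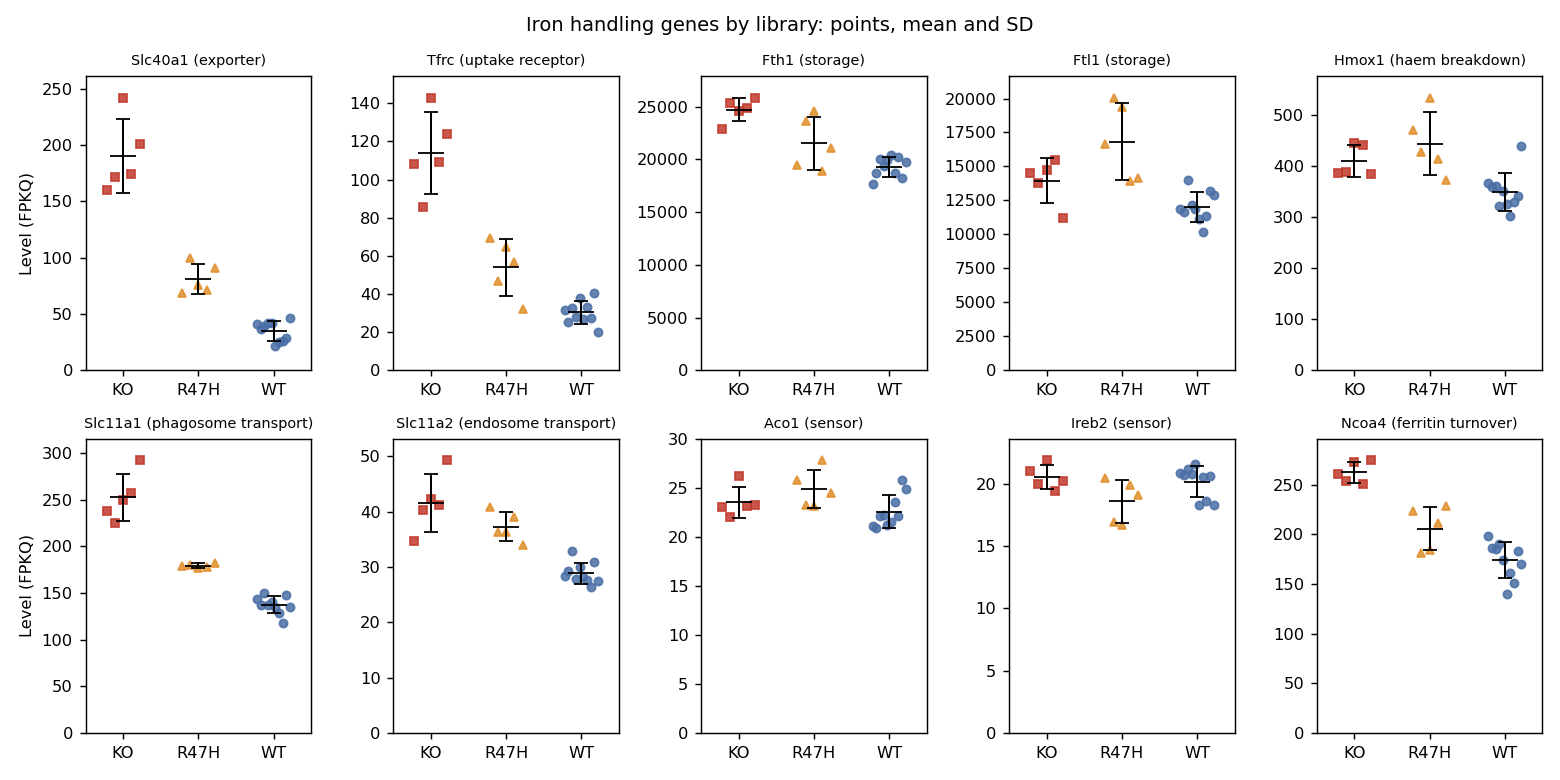
Transcript level in FPKQ (vertical axis, linear, from 0) of each of the 10 iron genes in every library, with KO on the left, R47H in the middle and WT on the right. Points are libraries and bars are group means ± SD (n = 5, 5 and 10). Slc40a1 lay between 160.1 and 242 FPKQ in KO, 68.5 and 99.5 FPKQ in R47H, and 21.2 and 46.0 FPKQ in WT.

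The members spanned a wide range of levels and kept the same order of group means in KO, R47H and WT. From high to low this order was Fth1, Ftl1, Hmox1, Ncoa4, Slc11a1, Slc40a1, Tfrc, Slc11a2, Aco1 and Ireb2. Fth1 ranked number 2 of all gene symbols in each group, and Ftl1 ranked number 4 in KO and number 3 in R47H and in WT. The 10 members together, nearly all of it ferritin, made up 6.32 to 6.58% of the summed FPKQ in KO libraries, 5.74 to 6.62% in R47H libraries and 5.17 to 5.91% in WT libraries. Slc40a1 held rank 428 in KO, 1121 in R47H and 2547 in WT, and Tfrc held rank 728 in KO, 1727 in R47H and 2920 in WT. In WT the neighbours Slc40a1 (34.8 ± 8.77 FPKQ), Tfrc (30.3 ± 6.03 FPKQ) and Slc11a2 (28.9 ± 1.91 FPKQ) overlapped in level, so their order there lay within the spread between libraries. In KO the levels of Slc40a1, Tfrc and Slc11a2 did not overlap.

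The exporter Slc40a1 had the largest difference from WT of the 10 members in both mutants. Its gene (ENSMUSG00000025993.10) lies on the minus strand at chr1:45908068-45926523 in GRCm38. In KO it measured 160.1, 172, 242, 174 and 201 FPKQ, and in R47H 68.5, 99.5, 75.7, 71.3 and 91.1 FPKQ. In WT it ran from 21.2 to 46.0 FPKQ with a median of 38.0 FPKQ. No library of any genotype overlapped with those of another, and the R47H libraries lay between the KO and the WT libraries. KO exceeded WT by 2.44 on the log2(FPKQ + 1) scale (SE 0.16, limma adjusted p = 3.32e-11), which is 5.46 times the WT mean. R47H exceeded WT by 1.23 (SE 0.16, limma adjusted p = 8.47e-06), 2.33 times the WT mean. Slc40a1 was lower in R47H than in KO by −1.21 (SE 0.18, limma adjusted p = 3.13e-05). The WT libraries were themselves uneven, at 40.2 ± 2.29 FPKQ in WT Rep1 to Rep5 and 29.4 ± 9.69 FPKQ in WT Rep6 to Rep10 (SD, n = 5 each). KO lay 2.20 above the first WT set and 2.69 above the second, and R47H lay 0.98 and 1.47 above them. All 4 differences were called.

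Tfrc, the receptor that brings in transferrin-bound iron, was higher in both mutants together with the exporter. Its gene (ENSMUSG00000022797.16) lies on the plus strand at chr16:32608920-32632794. KO libraries held 108, 85.4, 143, 109 and 124 FPKQ, and R47H libraries held 69.3, 46.7, 64.6, 56.8 and 32.3 FPKQ. WT libraries ran from 20.1 to 40.3 FPKQ with a median of 29.7 FPKQ. All KO libraries were above all R47H and WT libraries, and 4 of 5 R47H libraries were above all WT libraries, with R47H Rep5 inside the WT range. The difference was 1.88 for KO against WT (SE 0.16, limma adjusted p = 2.49e-09; 3.76 times the WT mean) and 0.79 for R47H against WT (SE 0.16, limma adjusted p = 0.00116; 1.78 times). R47H was lower than KO by −1.09 (SE 0.19, limma adjusted p = 0.000112). With library depth as a covariate the R47H difference from WT was 0.58 and missed the threshold (limma adjusted p = 0.0851).

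Tfrc is known to be high in dividing cells and in red cell precursors, and summed markers of both differed between the genotypes. The 6 dividing cell genes summed to 28.8 to 32.9 FPKQ in KO, 53.0 to 83.1 FPKQ in R47H and 122 to 155 FPKQ in WT. All 6 fell in both mutants, where 23.7% of all tested genes were lower in KO and 7.83% in R47H. Of the 6, Mki67 averaged 3.97 ± 0.142 FPKQ in KO, 8.19 ± 1.65 FPKQ in R47H and 19.2 ± 1.64 FPKQ in WT. The 9 erythroid markers summed to 2.28 to 2.68 FPKQ in KO, 1.07 to 1.78 FPKQ in R47H and 0.475 to 1.39 FPKQ in WT. Slc4a1 was at 0 in every library, and Alas2 was at 0 in every KO and R47H library. Epor averaged 1.86 ± 0.196 FPKQ in KO, 1.17 ± 0.258 FPKQ in R47H and 0.532 ± 0.166 FPKQ in WT. It was the only one of these 9 to pass the filter, and did so through its level in KO, so its test is not given. The part of these markers in the Tfrc difference was not tested.

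**Figure D2:**
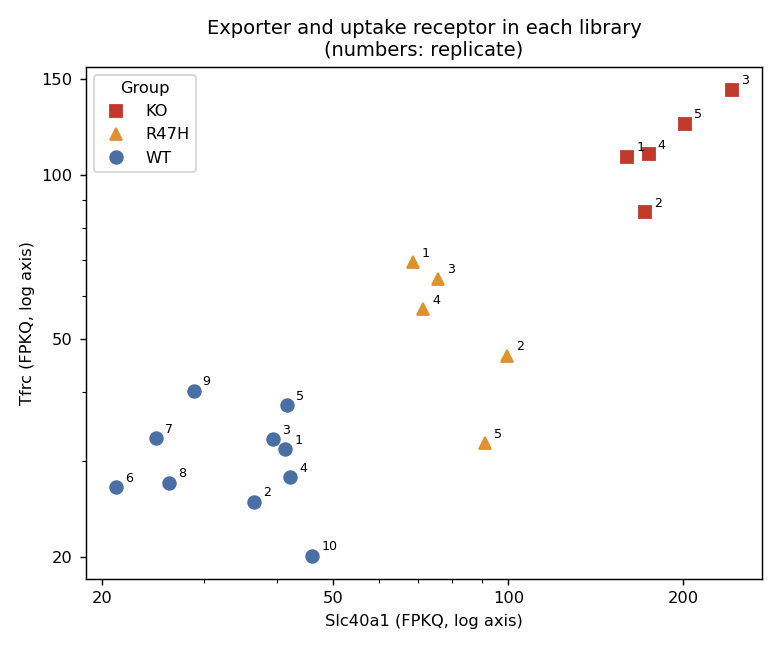
Level of Slc40a1 (horizontal axis) and of Tfrc (vertical axis) in FPKQ, both on logarithmic axes, with 1 point per library numbered by replicate and a colour and marker per genotype. KO libraries lie highest on both axes, and R47H Rep5 combines the lowest Tfrc of its group (32.3 FPKQ) with 91.1 FPKQ of Slc40a1.

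Across the 20 libraries Slc40a1 and Tfrc had a Pearson r of 0.878 on the log2 scale, and within the 10 WT libraries r was −0.162. WT Rep10 had both the highest Slc40a1 (46.0 FPKQ) and the lowest Tfrc (20.1 FPKQ) of the WT libraries, which pulls the WT r down. Both r values describe the libraries only, since the 20 share the difference between genotypes. The genes outside the members whose pattern was most like that of Slc40a1 over the 20 libraries were Cd4, Clec4n, Mertk, Arhgap19 and Selenop, with r between 0.974 and 0.982. Within the 10 WT libraries these 5 genes had r between 0.619 and 0.772 with Slc40a1. The 2 WT sets also differed in level. Slc40a1 averaged 40.2 FPKQ in WT Rep1 to Rep5 and 29.4 FPKQ in WT Rep6 to Rep10, and Mertk 16.8 and 11.4 FPKQ. The r within WT can thus include the difference between these sets. Cd4, a surface receptor best known from T cells, averaged 43.5 FPKQ in KO, 15.4 FPKQ in R47H and 6.32 FPKQ in WT, while of the T cell markers Cd3e and Cd3g were at 0 in every KO and R47H library and Cd8a averaged 0.0123 FPKQ in KO, 0.0023 FPKQ in R47H and 0.00118 FPKQ in WT. Mertk, a receptor for engulfing dead cells, averaged 52.3 FPKQ in KO, 25.6 FPKQ in R47H and 14.1 FPKQ in WT. For Tfrc the closest 5 were Fchsd2, Tpp1, Vcam1, Adcy3 and Tmem65, with r between 0.950 and 0.955, and within WT between 0.621 and 0.758. Vcam1, an adhesion molecule, averaged 16.5 FPKQ in KO, 4.59 FPKQ in R47H and 1.84 FPKQ in WT.

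Of the iron transporters of internal membranes, Slc11a1, found in phagosomes and late endosomes, separated the 3 genotypes without overlap. Its gene (ENSMUSG00000026177.11) lies on the plus strand at chr1:74375195-74386062. KO libraries measured 238, 225, 250.0, 258 and 292 FPKQ, R47H libraries 179, 180.1, 176, 178 and 183 FPKQ, and WT libraries 118 to 149.8 FPKQ with a median of 137 FPKQ. The R47H values were close together, with an SD of 2.34 FPKQ around a mean of 179 FPKQ. Slc11a1 rose by 0.87 in KO (SE 0.06, limma adjusted p = 2.10e-11) and by 0.39 in R47H (SE 0.06, limma adjusted p = 2.91e-05), and was lower in R47H than in KO by −0.49 (SE 0.06, limma adjusted p = 5.83e-06). These 3 calls held under every alternative tried.

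Slc11a2 moves iron out of endosomes after transferrin uptake. Its gene (ENSMUSG00000023030.16) lies on the minus strand at chr15:100387898-100425072. It measured 34.8, 40.2, 42.3, 41.1 and 49.3 FPKQ in KO, 40.8, 36.3, 36.2, 39.1 and 34.1 FPKQ in R47H, and 26.5 to 32.9 FPKQ in WT with a median of 28.2 FPKQ. All mutant libraries lay above all WT libraries, and KO and R47H overlapped. The rise was 0.50 in KO (SE 0.06, limma adjusted p = 8.47e-07) and 0.36 in R47H (SE 0.06, limma adjusted p = 0.000305). The difference of R47H from KO was −0.15 (95% interval −0.30 to 0.01, limma adjusted p = 0.116), and it was called without KO Rep1, at −0.21 (limma adjusted p = 0.0243). Slc11a2 is known to make transcripts with and without an iron-responsive element, and the files hold 1 value per gene, so these were not separated.

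Hmox1, which breaks down haem and frees its iron, was modestly higher in both mutants. The gene (ENSMUSG00000005413.8) lies on the plus strand at chr8:75093621-75100589. It measured 387, 388, 445, 441 and 384 FPKQ in KO, and 471, 427, 534, 413 and 372 FPKQ in R47H. WT ranged between 302 and 438 FPKQ with a median of 346 FPKQ. WT Rep10 held the 438 FPKQ and overlapped with both mutants, and the other 9 WT libraries reached at most 366 FPKQ, below every KO and R47H library. Hmox1 rose by 0.23 in KO (SE 0.08, limma adjusted p = 0.0201) and by 0.34 in R47H (SE 0.08, limma adjusted p = 0.00381). R47H differed from KO by 0.11 (95% interval −0.08 to 0.30, limma adjusted p = 0.355). The KO call was lost without KO Rep3 (adjusted p = 0.065), without KO Rep4 (0.0609), against WT Rep6 to Rep10 alone (0.0623), with equal sums (0.0836) and with depth as a covariate (0.137). The R47H call was lost with depth as a covariate (0.0596), where the difference was 0.33 and its SE 0.11.

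Over the 20 libraries the genes most like Hmox1 were P4hb, BC004004, Atp6v0d1, Fabp4 and Pex11a, with r between 0.845 and 0.888. Among the members, Ftl1 had the highest r with Hmox1 over the 20 libraries, at 0.815. Within the 10 WT libraries r with Hmox1 was 0.583 for Ftl1 and 0.671 for Slc40a1. Both Hmox1 and Ftl1 had their highest group mean in R47H.

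Of the ferritin chains, Fth1 passed the test in KO and Ftl1 passed it in R47H. Fth1, the heavy chain that oxidises iron for storage, lies on the plus strand at chr19:9980598-9985098 (ENSMUSG00000024661.7). It measured 22923, 25324, 24642, 24927 and 25868 FPKQ in KO and 19431, 23689.8, 24563, 18914 and 21043 FPKQ in R47H. WT spanned 17630.0 to 20467 FPKQ with a median of 19566 FPKQ. Every KO library was above every WT library, and 3 of 5 R47H libraries were. Fth1 rose by 0.36 in KO (SE 0.07, limma adjusted p = 0.000181), or 1.28 times the WT mean. In R47H the difference from WT was 0.15 (95% interval 0.01 to 0.29, limma adjusted p = 0.132), which did not pass. R47H was lower than KO by −0.21 (SE 0.08, limma adjusted p = 0.0437), a call that turned sign under quantile normalization and was lost under 16 more of 31 alternatives, including leaving out any of KO Rep2 to Rep5, R47H Rep1, Rep4 or Rep5, or WT Rep2 to Rep5 or Rep10. The R47H difference from WT was called without R47H Rep4, at 0.20 (limma adjusted p = 0.0481).

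Ftl1, the light chain that helps form the iron core, lies on the minus strand at chr7:45457944-45459884 (ENSMUSG00000050708.16). It measured 14504, 13778, 14750.1, 15505 and 11217 FPKQ in KO, and 16640.0, 20066, 19348, 13954 and 14157 FPKQ in R47H. WT spanned 10157 to 13973 FPKQ with a median of 11879 FPKQ. In R47H 4 of 5 libraries were above all WT libraries, and in KO 3 of 5 were. Ftl1 rose by 0.47 in R47H (SE 0.10, limma adjusted p = 0.00119), or 1.40 times the WT mean. KO differed from WT by 0.21 (95% interval 0.01 to 0.41, limma adjusted p = 0.0752), and R47H from KO by 0.26 (95% interval 0.03 to 0.50, limma adjusted p = 0.0669). Neither passed. The KO difference from WT was called without KO Rep5, where it was 0.29, without WT Rep3, where it was 0.24, with library weights, where it was 0.25, and in a fit of KO and WT alone, where it was 0.21 (limma adjusted p = 0.0372). The difference between R47H and KO was called without R47H Rep4, where it was 0.33, and without R47H Rep5, where it was 0.32. Under quantile normalization it was 0.55, but that value depends on rank alone. By group mean Ftl1 ranked number 4 of all symbols in KO and number 3 in R47H.

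Ferritin genes have near-identical processed copies, so reads can be split among them. The row of the pseudogene Ftl1-ps1 held 0.287 to 1.69% of the Ftl1 level, and with the Ftl1 pseudogene rows added the log2 differences were 0.21 for KO and 0.48 for R47H against WT. Because Fth1 and Ftl1 are among the 4 highest of all symbols, quantile normalization, which forces the top values to be equal, changed both. Under it the KO difference from WT was −0.02 for Fth1 (limma adjusted p = 0.746) and −0.55 for Ftl1 (limma adjusted p = 9.58e-12), and the R47H difference for Ftl1 was 0.00. These values depend on rank alone, and by group mean Ftl1 ranked number 4 in KO and number 3 in R47H and in WT. Without the filter on low values, the differences stayed at 0.36 for Fth1 in KO and 0.47 for Ftl1 in R47H, but their SEs were 0.28 and 0.21 and both calls were lost (limma adjusted p = 0.414 and 0.216).

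Ncoa4, the receptor that takes ferritin to lysosomes, lies on the plus strand at chr14:32159865-32179855 (ENSMUSG00000056234.15). It measured 261, 253, 272, 250.5 and 274 FPKQ in KO, 223, 181, 184, 211 and 228 FPKQ in R47H, and 139.8 to 198 FPKQ in WT with a median of 179 FPKQ. KO libraries lay above all others, and 3 of 5 R47H libraries lay above all WT libraries. The rise in KO was 0.60 (SE 0.07, limma adjusted p = 6.29e-07), and R47H was lower than KO by −0.36 (SE 0.09, limma adjusted p = 0.00245). R47H exceeded WT by 0.24 (SE 0.07, limma adjusted p = 0.0231), but this call was lost under 9 of 33 alternatives. With WT Rep1 to Rep5 as the sole controls it was 0.13 (limma adjusted p = 0.177), and it was 0.12 with equal sums and also under quantile normalization. It was also lost without R47H Rep1 (limma adjusted p = 0.0669) and without R47H Rep5 (0.0732).

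The iron sensors themselves moved little. Aco1, the cytosolic aconitase that binds iron-responsive elements when it loses its iron-sulphur cluster, lies on the plus strand at chr4:40143081-40198338 (ENSMUSG00000028405.9). It measured 23.1, 21.98, 26.2, 23.1 and 23.3 FPKQ in KO, 25.8, 23.2, 23.1, 27.8 and 24.5 FPKQ in R47H, and 20.9 to 25.8 FPKQ in WT with a median of 22.1 FPKQ. All 3 groups overlapped. Aco1 differed by 0.06 in KO (95% interval −0.06 to 0.18, limma adjusted p = 0.388) and by 0.14 in R47H (95% interval 0.02 to 0.25, limma adjusted p = 0.0888) from WT. The R47H value passed with WT Rep1 to Rep5 as the sole controls (0.20, limma adjusted p = 0.0237), with library weights (0.17) and without WT Rep9 (0.16, limma adjusted p = 0.0374).

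Ireb2, the second iron regulatory protein, which is degraded when iron is plentiful, lies on the plus strand at chr9:54863789-54912530 (ENSMUSG00000032293.8). It measured 21.1, 20.01, 21.9, 19.5 and 20.3 FPKQ in KO, 20.5, 16.9, 16.7, 19.9 and 19.1 FPKQ in R47H, and 18.3 to 21.6 FPKQ in WT with a median of 20.7 FPKQ. The groups overlapped, and 2 of 5 R47H libraries lay below all WT libraries. Ireb2 differed from WT by 0.03 in KO (95% interval −0.08 to 0.14, limma adjusted p = 0.706) and by −0.11 in R47H (95% interval −0.22 to 0.00, limma adjusted p = 0.146). R47H differed from KO by −0.14 (95% interval −0.27 to −0.01, limma adjusted p = 0.0775), and that difference was called without R47H Rep1, at −0.17, and without R47H Rep4, at −0.16. The R47H difference from WT was called with equal sums (−0.23, limma adjusted p = 0.0259) and with WT Rep1 to Rep5 as the sole controls (−0.17, limma adjusted p = 0.0471). For Aco1 the difference of R47H from KO was 0.08 (95% interval −0.06 to 0.21, limma adjusted p = 0.355).

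**Figure D3:**
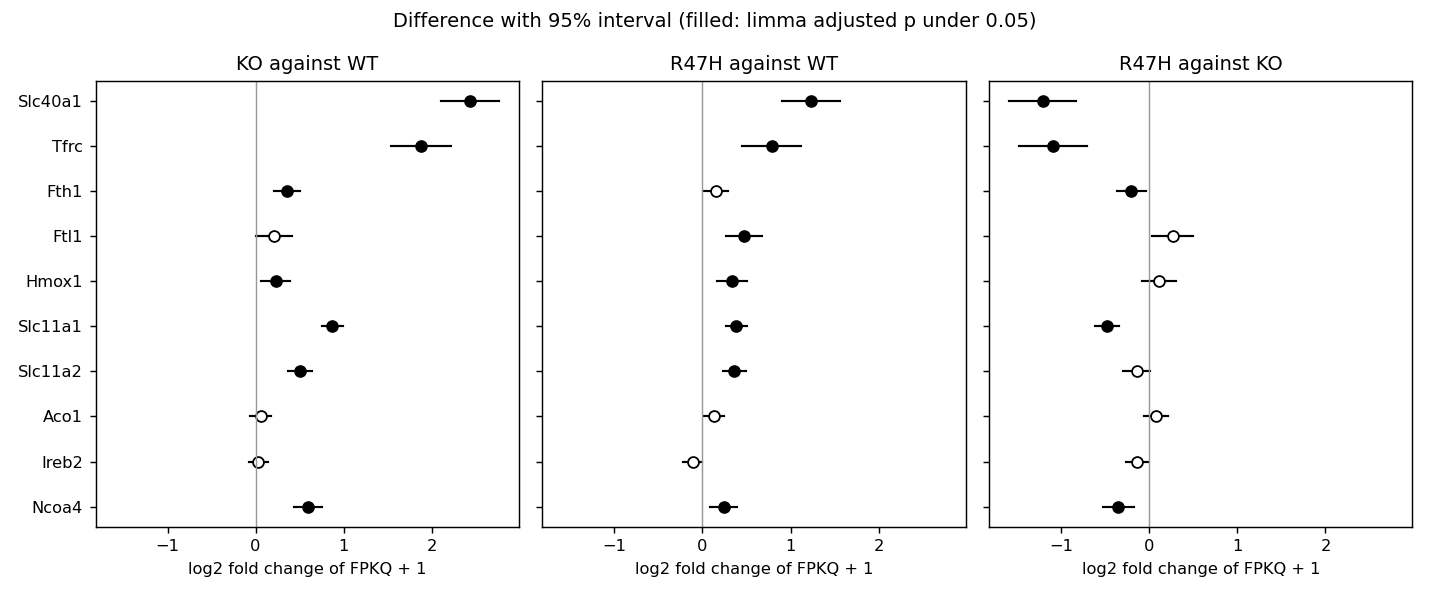
Log2 difference of log2(FPKQ + 1) for each of the 10 iron genes, in panels for KO against WT, R47H against WT and R47H against KO, all with the same horizontal axis. Points are limma estimates with 95% intervals, and filled points passed an adjusted p of 0.05. Slc40a1 and Tfrc have the largest differences from WT in both mutants, and both lie below 0 in R47H against KO.

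The other genes of iron and haem metabolism moved in both directions. Of 69 such genes in the files, in 6 lists, 55 passed the filter. Spic passed it through its level in the mutants and is counted among the calls of each comparison below. In KO 22 of the 55 rose, 10 fell and 23 missed the threshold, where 28.2% of all tested genes were higher and 23.7% lower. The median log2 difference in KO was 0.09, against 0.01 over all tested genes. In R47H 10 rose, 2 fell and 43 missed the threshold, where 13.4% of all tested genes were higher and 7.83% lower. The median in R47H was 0.08, against 0.04 over all tested genes. R47H was higher than KO for 8 of the 55 and lower for 13, where 22.8% of all tested genes were higher and 18.0% lower, with a median of 0.00 against 0.03. The share of these genes called in either direction against WT was near that of all tested genes, 52.0% in KO and 21.2% in R47H. Counted that way, the 55 are not set apart from other genes. By direction, a larger share rose and a smaller share fell than over all tested genes in both mutants, which was not tested. These lists were drawn up with earlier results of the same libraries known.

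Among 11 tested genes of iron and haem uptake, 4 rose and 3 fell in KO (52.0% of all tested genes called), and 3 rose and 1 fell in R47H (21.2% of all tested genes called). Trf, transferrin itself, the ligand of Tfrc, averaged 376 ± 24.5 FPKQ in KO, 267 ± 36.4 FPKQ in R47H and 156 ± 13.6 FPKQ in WT. It rose by 1.27 in KO (limma adjusted p = 3.89e-12) and by 0.77 in R47H (limma adjusted p = 1.42e-07), and was lower in R47H than in KO by −0.50 (limma adjusted p = 9.01e-05). Trf, Tfrc and Slc40a1 thus had the same order of means, highest in KO and lowest in WT. Slc48a1, which carries haem out of phagolysosomes, rose by 0.64 in KO (limma adjusted p = 1.33e-09) and 0.33 in R47H (limma adjusted p = 0.000102). Steap3, the reductase that prepares endosomal iron for Slc11a2, fell by 0.52 in KO (limma adjusted p = 1.80e-07) and differed by −0.14 in R47H (limma adjusted p = 0.0875). Lrp1, a receptor that also takes up haem bound to hemopexin, fell by 0.42 in KO (limma adjusted p = 3.01e-06) and differed by −0.04 in R47H (limma adjusted p = 0.691).

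Of 3 tested export genes besides Slc40a1, 2 rose and 1 fell in KO (52.0% of all tested genes called), and 1 rose in R47H (21.2%). Cp, ceruloplasmin, the oxidase that works beside ferroportin, averaged 12.8 ± 1.80 FPKQ in KO, 6.60 ± 1.89 FPKQ in R47H and 3.18 ± 0.995 FPKQ in WT. Cp rose by 1.75 in KO (limma adjusted p = 8.98e-09) and by 0.87 in R47H (limma adjusted p = 0.000518), and was lower in R47H than in KO by −0.88 (limma adjusted p = 0.000953). The haem exporter Flvcr1, listed under its older symbol Mfsd7b, rose by 0.29 in KO (limma adjusted p = 0.000929), and Abcg2 fell by 0.38 there (limma adjusted p = 0.00271). Neither passed in R47H, where Mfsd7b differed by 0.15 and Abcg2 by −0.20. Of 4 tested genes of ferritin turnover, Herc2, a ligase known to act on Ncoa4, rose in KO by 0.20 (limma adjusted p = 0.0059), and 0 passed in R47H.

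Among 11 genes of haem synthesis and breakdown, 4 rose and 2 fell in KO (52.0% of all tested genes called), and 3 rose and 0 fell in R47H (21.2%). Blvrb, which acts on bile pigments downstream of Hmox1, rose by 0.60 in KO (limma adjusted p = 3.31e-07) and by 0.49 in R47H (limma adjusted p = 2.82e-05). Fech, which inserts iron into haem, rose by 0.28 in KO (limma adjusted p = 0.000926) and differed by −0.01 in R47H. Of 18 mitochondrial genes, 5 rose and 3 fell in KO (52.0% of all tested genes called), and 1 rose and 1 fell in R47H (21.2%). Iscu, the scaffold on which iron-sulphur clusters are built, rose by 0.49 in KO (limma adjusted p = 1.64e-06) and by 0.28 in R47H (limma adjusted p = 0.0032).

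Of 8 tested iron regulators other than Aco1 and Ireb2, 6 rose and 1 fell in KO (28.2% of all tested genes higher, 23.7% lower), and 2 rose in R47H (13.4% higher). Spic, a transcription factor known from iron-recycling macrophages of the spleen, averaged 5.29 ± 0.892 FPKQ in KO, 1.72 ± 0.312 FPKQ in R47H and 0.734 ± 0.273 FPKQ in WT. Spic lay above WT by 1.86 in KO and by 0.66 in R47H, and these fold changes are understated because 1 FPKQ is added before the log. Its WT mean lay below the filter of 1 FPKQ. Spic passed that filter through its level in the mutants, so its tests are not given. It is counted among the 6 that rose in KO and the 2 that rose in R47H. Bach1, a haem-sensing repressor of Hmox1, rose by 0.50 in KO (limma adjusted p = 1.54e-05) and differed by 0.01 in R47H (limma adjusted p = 0.968). Nfe2l2, an activator of Hmox1 and the ferritin genes, rose by 0.32 in KO (limma adjusted p = 0.000121) and by 0.34 in R47H (limma adjusted p = 0.000282). Hif1a, a hypoxia factor known to act on Tfrc, rose by 0.79 in KO (limma adjusted p = 2.57e-10), differed by 0.06 in R47H (limma adjusted p = 0.553), and was lower in R47H than in KO by −0.73 (limma adjusted p = 5.18e-08). Hfe, a partner of Tfrc at the cell surface, rose by 0.73 in KO (limma adjusted p = 5.84e-05) and differed by 0.26 in R47H (limma adjusted p = 0.155).

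**Figure D4:**
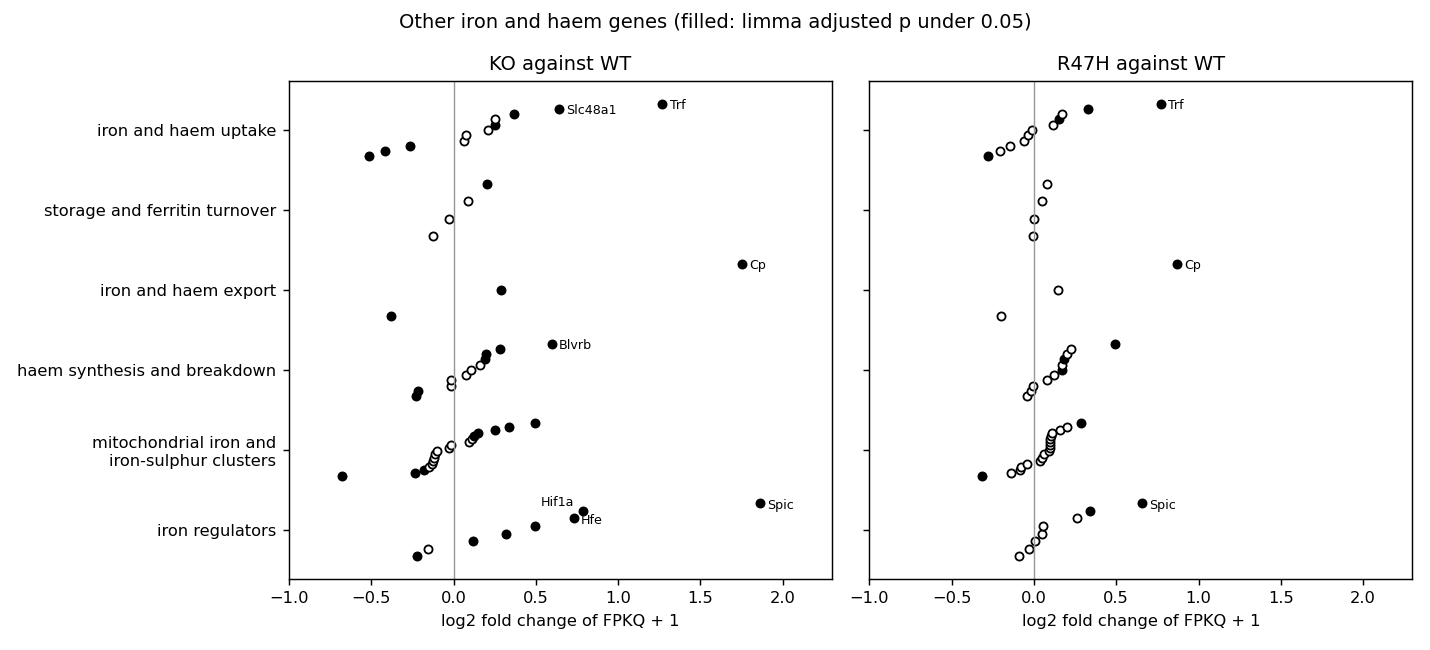
Difference from WT on the log2(FPKQ + 1) scale of the 55 tested genes in 6 lists of iron and haem metabolism, in KO (left) and R47H (right). Each point is a gene, filled where the limma adjusted p was under 0.05, and within a list points are stacked by value, with names at those that rose at least 1.5-fold. Spic, Cp and Trf have the largest differences in KO (1.86, 1.75 and 1.27). Spic passed the filter on low values through its level in the mutants.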

How the data were processed

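The authors deposited 1 table per library with gene symbols and values in FPKQ, taken here as an FPKM-type unit. No definition of FPKQ is given in the sources used here. Among protein-coding genes, the 71.5th percentile was 9.98 to 10.03 in every library. The submitters' processing notes name RSEM and GRCm38, without versions or settings. Per the labels, poly-A RNA was made into dUTP strand-specific libraries and read as pairs of 75 bases. RSEM can share fragments between similar genes, which touches the ferritin pseudogenes. Depth was estimated from low values of genes with transcripts of at least 600 bases: 85.9 to 91.2% of them per library were whole multiples of 1 fragment within 0.1 fragment. No count test was run, since the multiples were incomplete.

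Symbols with a mean of at least 1 FPKQ (10843) were tested as log2(FPKQ + 1) with limma 3.58.1 in R 4.3.3 (lmFit, eBayes with trend), in 1 model of the 20 libraries with a mean per genotype. P-values were adjusted over all tested symbols by Benjamini-Hochberg, with calls at 0.05, and every adjusted p of a gene in the text is from limma. The fit was tested on simulated data before use. Single values were compared by exact permutation tests that went through every split, in Python 3.11.15 with numpy 2.4.6. Iron-responsive elements and coordinates came from GENCODE M21 on GRCm38.

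The members and lists were chosen with earlier results of these data known. The rule for names took the 10 members, Trem2, and of the other iron genes those called with at least 1.5-fold in a mutant or up to 3 per list with the smallest adjusted p, plus the 5 genes most like Slc40a1, Tfrc and Hmox1, without predicted gene models. Alternatives covered the WT set, pseudocount, filter, scaling, weights, groups in the fit, depth, a replicate block and the loss of any 1 library. Of the genes this rule named, 1 is not reported here.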

Additional observations from a re-analysis of the deposited data

Results flagged for a closer look

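Hmox1 in WT Rep10 stood apart from the other WT libraries at 438 FPKQ, where the other 9 ran from 302 to 366 FPKQ. Its gap to the nearest library was 0.53 of the group's range, above the critical value of 0.466 for 10 libraries. The 10 members in 3 genotypes gave 30 such groups, and chance alone marks about 1 in 20. WT Rep10 also had the highest Slc40a1 (46.0 FPKQ) and the lowest Tfrc (20.1 FPKQ) of the WT libraries. Without it Hmox1 exceeded WT by 0.27 in KO and by 0.38 in R47H.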

How the results depend on the processing

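Slc40a1, Slc11a1 and Slc11a2 kept their calls and directions against WT under all 33 alternatives in both mutants, and so did Tfrc and Ncoa4 in KO. With depth as a covariate, 1077 genes and 4 members were called in R47H against WT, where 2301 genes and 7 members were called without it; depth differs between the genotypes, and the cause was not tested. Leaving out each library in turn gave 5217 to 5758 called genes in KO, 1704 to 2360 in R47H and 3743 to 4709 in R47H against KO, with 6 to 8, 6 to 8 and 4 to 6 members called.

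Some values changed sign before rounding. In KO against WT, Ireb2 was −0.03 against WT Rep1 to Rep5, −0.05 with equal sums and −0.03 with the replicate block. Aco1 was 0.00 against WT Rep6 to Rep10 and −0.02 with equal sums. Under quantile normalization Fth1 was −0.02 and Ftl1 −0.55 in KO against WT, and Fth1 was 0.03 and Hmox1 −0.06 in R47H against KO.

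Replicate numbers 1 to 5 showed no steady pairing of libraries. Same-numbered libraries correlated between −0.25 and 0.34 in KO and WT, 0.02 and 0.22 in R47H and WT, and −0.12 and 0.31 in R47H and KO. WT Rep6 to Rep10 share no number with a mutant library and were not in this check. It therefore cannot tell whether they pair with libraries of either mutant. A library correlated best with its own number in 1, 2 and 1 of 5 cases. The replicate block was fitted without WT Rep6 to Rep10. With it, 4395 genes and 7 members were called in KO, and 4176 genes and 4 members in R47H against KO. In R47H against WT the block left 1799 genes and 7 members called. These included Aco1, at 0.20 (limma adjusted p = 0.0347), and not Ncoa4, at 0.13 (limma adjusted p = 0.194). At these depths all members lie far above 1 FPKQ, so counting error is small for them.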

Other observations

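The ratio of the ferritin light to heavy chain, chosen after its values were seen, was highest in R47H. Ftl1 over Fth1 averaged 0.780 ± 0.0769 in R47H (SD, n = 5), 0.566 ± 0.0816 in KO (SD, n = 5) and 0.624 ± 0.0637 in WT (SD, n = 10). Every R47H library, from 0.673 to 0.856, was above every KO library, from 0.434 to 0.633. On the log2 scale R47H exceeded KO by 0.47 (two-sided exact permutation test, p = 0.00794, the smallest that 252 splits allow; 0.0238 adjusted over 6 ratio tests). R47H exceeded WT by 0.32 (exact permutation test, p = 0.00233, adjusted 0.014), and KO differed from WT by −0.15 (exact permutation test, p = 0.154, adjusted 0.206).

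The ratio of Slc40a1 to Tfrc averaged 1.68 ± 0.199 in KO (SD, n = 5), 1.67 ± 0.776 in R47H (SD, n = 5) and 1.21 ± 0.474 in WT (SD, n = 10). On the log2 scale KO differed from WT by 0.56 (exact permutation test, p = 0.042, adjusted 0.084), R47H from WT by 0.45 (exact permutation test, p = 0.172, adjusted 0.206) and R47H from KO by −0.12 (exact permutation test, p = 0.73, adjusted 0.73). The R47H ratios spread from 0.989 to 2.82, wider than the KO ratios, which ran from 1.48 to 2.01.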
